A study of Mus musculus with 8 samples.

Results

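Co-receptor-negative Klrb1c alpha-beta T cells are bone marrow T cells that carried both chains of an alpha-beta T cell receptor, at least 1 UMI (a counted RNA molecule) of Klrb1c and no UMI of Cd4, Cd8a or Cd8b1. Klrb1c encodes NK1.1, the receptor by which mouse natural killer cells are usually stained. A barcode (1 droplet, taken as 1 cell) was kept with at least 200 detected genes and at most 15% mitochondrial UMIs. It had to hold a TRA and a TRB contig, and barcodes joining a TRAV11 segment to TRAJ18, the receptor of invariant NKT cells, were left out. In all, 2675 of the 37502 kept barcodes with paired chains met this rule, of 55850 kept and 56649 deposited barcodes. The rule used the Klrb1c, Cd4, Cd8a and Cd8b1 counts, so the levels of those genes are given as a description.

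Single-cell 5′ gene expression and T cell receptor libraries had been made from CD3+ T cells sorted from mouse bone marrow after depletion of other cells, with dead cells and mCherry+ cells gated out. The Runx1::Runx1t1 group comprised 2 pools from C57BL/6 Runx1Runx1t1/+; Mx1-Cre mice, in which the interferon-inducible Mx1-Cre recombinase switches on the leukemia fusion together with an mCherry reporter. The control group comprised 2 pools that are labelled WT and that the study's methods describe as Runx1Runx1t1/+ littermates without Mx1-Cre. Each pool joined 2 mice, all mice of both groups had received 4 injections of Poly(I:C), an inducer of interferon, at 5 mg/kg, and marrow was taken 4 weeks after induction. The 4 expression libraries held 102883449 and 100115383 UMIs in the Runx1::Runx1t1 group and 90958101 and 99869646 UMIs in the control group. Values of single pools are given throughout in the order Runx1::Runx1t1 replicate 1, Runx1::Runx1t1 replicate 2, control replicate 1, control replicate 2. The pools held 324, 129, 1135 and 1087 of these cells. Between libraries 1669 barcodes were shared, of which 1 belonged to these cells and none carried the same chains.

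Conventional alpha-beta T cells use CD4 or CD8 to help their receptor read peptide on MHC molecules, and a small fraction in marrow, liver and spleen lacks both. Natural killer receptors come in activating and inhibitory forms. Activating receptors signal through small membrane adaptors such as FcR gamma (Fcer1g), DAP12 (Tyrobp) and DAP10 (Hcst), and the inhibitory Ly49 receptors (the Klra family) recognise MHC class I. T cells with such receptors include invariant NKT cells, which share 1 alpha chain and recognise lipid on CD1d, and cells with diverse receptors, which are grouped apart from them.

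The receptor sequences of the 3 largest clonotypes are shown because the expression of their cells is described with the clonotypes, and each came from a different pool. The CDR3, the loop that touches the ligand, is written as nucleotides from 5′ to 3′. Capitals mark the junction bases, those not shared with the V or J end of at least 10% of the clonotypes that use the same segment.
Control replicate 2, 31 cells, TRAV12D-3 to TRAJ7: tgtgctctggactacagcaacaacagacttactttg
Control replicate 2, 31 cells, TRBV13-3 to TRBJ2-7: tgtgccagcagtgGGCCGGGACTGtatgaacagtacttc
Runx1::Runx1t1 replicate 1, 18 cells, TRAV12-2 to TRAJ43: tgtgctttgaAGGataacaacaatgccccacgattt
Runx1::Runx1t1 replicate 1, 18 cells, TRBV5 to TRBJ2-7: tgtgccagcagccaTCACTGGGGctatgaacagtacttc
Control replicate 1, 12 cells, TRAV6N-7 to TRAJ31: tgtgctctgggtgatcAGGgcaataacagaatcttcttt
Control replicate 1, 12 cells, TRBV12-1 to TRBJ2-1: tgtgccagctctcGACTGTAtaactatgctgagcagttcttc
No segment was common to all 3 receptors, and the first alpha chain had 0 junction bases.

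The 4 alpha chains found in 3 or 4 pools are shown next, as the most widely shared of the 48 alpha CDR3 sequences that were in 2 or more pools. No pair of alpha and beta chains was in more than 1 pool.
In 4 pools, TRAV12-2 to TRAJ24: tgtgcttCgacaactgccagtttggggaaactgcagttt
In 3 pools, TRAV1 to TRAJ33: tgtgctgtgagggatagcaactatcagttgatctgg
In 3 pools, TRAV3D-3 to TRAJ22: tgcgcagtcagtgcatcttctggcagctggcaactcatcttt
In 3 pools, TRAV6-6 to TRAJ18: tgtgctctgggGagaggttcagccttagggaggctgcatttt
These 4 alpha chains had 0 or 1 junction base each. The TRAV1 to TRAJ33 chain is the join used by mucosal-associated invariant T cells, which recognise microbial vitamin B metabolites on MR1. It stood in 7 clonotypes, and in all 10 of the 2675 cells (0.374%) had a TRAV1 to TRAJ33 join.

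The rule required both receptor chains and the cells had been sorted as CD3+. The T cell genes given next therefore describe the cells and do not test what they are. A Cd3d, Cd3e or Cd3g UMI was found in 99.96% of the cells. It was also found in 95.9% of the Klrb1c barcodes with no co-receptor and no receptor contig. The median co-receptor-negative Klrb1c cell had 5 UMIs of a TRA contig and 15 UMIs of a TRB contig. Cd3e, a chain of the signalling complex of the receptor, stood at 936, 1044, 908 and 833 CPM (the UMIs of a gene summed over the cells of a pool, scaled to a common total). Trac, the alpha chain constant region, stood at 134, 161, 143 and 136 CPM. Trdc, its gamma-delta counterpart, stood at 17.2, 18.0, 13.7 and 12.8 CPM. It reached 209 CPM or more in each pool of the 1529 barcodes with Klrb1c and no co-receptor that lacked a receptor contig. The median depth was 6960 UMIs per cell, with pool medians of 7471.5, 7866, 6846 and 6952 UMIs, and 3.14% of the cells were marked as likely doublets.

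The markers given with the cells, beside Klrb1c, were Ncr1, Klra7 and Fcer1g, and all 3 were detected. They had been named with earlier results of these data known, so their values describe the cells. Klrb1c (chromosome 6, 128778485 to 128789215, minus strand, GRCm38) stood at 343, 352, 402 and 399 CPM. Ncr1 (chromosome 7, 4337724 to 4345164, plus strand), which encodes the activating receptor NKp46, had a UMI in 11.4%, 17.1%, 13.6% and 15.3% of the cells. In Cd4 alpha-beta cells without a Klrb1c UMI, which should lack these genes, the shares for Ncr1 were 0%, 0%, 0.361% and 0.963%. The median depth of all Cd4 cells was 5168 UMIs. Klra7 (chromosome 6, 130218605 to 130233322, minus strand), which encodes an inhibitory Ly49 receptor, had a UMI in 43.5%, 34.9%, 61.6% and 60.3% of the cells. The shares for Klra7 in the Cd4 cells were 0.496%, 0.338%, 1.81% and 0.963%. Fcer1g (chromosome 1, 171229572 to 171234365, minus strand), the FcR gamma adaptor, had a UMI in 69.8%, 71.3%, 85.1% and 85.0% of the cells. The shares for Fcer1g in the Cd4 cells were 1.84%, 2.20%, 5.17% and 4.81%. Each marker was thus found in every pool above its share in the Cd4 cells, and Ncr1 marked a minority.

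The cutoff of 1 Klrb1c UMI did not fall at a gap. Of the 2675 cells, 793 (29.6%) had exactly 1 Klrb1c UMI, and 3944 otherwise alike cells had 0. Just outside the cutoff, at 0 Klrb1c UMIs, Fcer1g stood at 71.8, 40.1, 245 and 227 CPM. Just inside it, at 1 UMI, Fcer1g stood at 373, 486, 649 and 582 CPM. With 3 or more UMIs it stood at 848, 814, 884 and 800 CPM. Cells on both sides of the cutoff expressed the adaptor, and in the control pools the cells just outside held more of it than those of the Runx1::Runx1t1 pools.

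Among markers of other cells, those of myeloid cells stood higher in control replicate 1 than in the other pools. The 10 myeloid markers summed to 12.8, 12.3, 1405 and 45.7 CPM, and S100a9, a neutrophil granule gene, was the most abundant. Camp and Ngp, also neutrophil genes, had 0 UMIs in both Runx1::Runx1t1 pools. In control replicate 1, 5 cells held 98.9% of the 1858 Camp UMIs and 96.1% of the 3224 S100a9 UMIs, and the part of these barcodes in the results was not tested. The B cell markers Ms4a1, Pax5 and Ebf1 had 0 UMIs in the cells of every pool, and the 7 markers summed to 118, 154, 112 and 111 CPM, mostly Ighm. The 7 erythroid markers summed to 16.8, 19.9, 25.9 and 30.0 CPM, with Car2 the most abundant. The 5 progenitor markers summed to 9.18, 4.75, 4.69 and 26.7 CPM, with Cd34 the most abundant. The 8 gamma-delta markers summed to 195, 166, 114 and 136 CPM, with the rearranged gamma gene Trgv2 the most abundant.

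The cells took a smaller share of the paired alpha-beta barcodes in both Runx1::Runx1t1 pools than in either control pool. The shares were 3.18% (95% Wilson interval 2.86 to 3.54), 1.44% (1.21 to 1.71), 12.9% (12.2 to 13.6) and 11.4% (10.8 to 12.0). The groups did not overlap. Means were 2.31% ± 1.23 for Runx1::Runx1t1 and 12.1% ± 1.05 for control (SD over n = 2 pools), a difference of -9.81 percentage points and a 5.24-fold lower mean. The fold was 8.42 without Runx1::Runx1t1 replicate 1 and 3.81 without Runx1::Runx1t1 replicate 2. The two-sided exact permutation p was 0.3333, the smallest that 2 pools against 2 can give. Of all kept barcodes, the shares were 2.23%, 0.950%, 8.42% and 7.64%. Cells were compared after depletion and sorting, so a share does not give the number of cells in the marrow.

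Other classes of the same pools were compared to see how far this difference was shared. Cd8 Klrb1c cells, which had a Klrb1c UMI and a Cd8a or Cd8b1 UMI, made up 4.29%, 1.85%, 7.70% and 9.23% of paired barcodes, a 2.75-fold difference of means (4.57-fold without Runx1::Runx1t1 replicate 1). Co-receptor-negative cells with 0 Klrb1c UMIs made up 11.0%, 7.64%, 12.1% and 11.2%, a 1.26-fold difference. Invariant NKT cells made up 4.80%, 2.50%, 6.54% and 6.11%, a 1.73-fold difference. For each Cd8 Klrb1c cell there were 0.741, 0.777, 1.67 and 1.23 co-receptor-negative Klrb1c cells. For each invariant NKT cell there were 0.664, 0.576, 1.97 and 1.86, and for each Klrb1c-zero cell 0.290, 0.189, 1.06 and 1.01. None of the 3 ratios overlapped between the groups, and each had an exact permutation p of 0.3333, again the smallest possible.

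**Figure D1:**
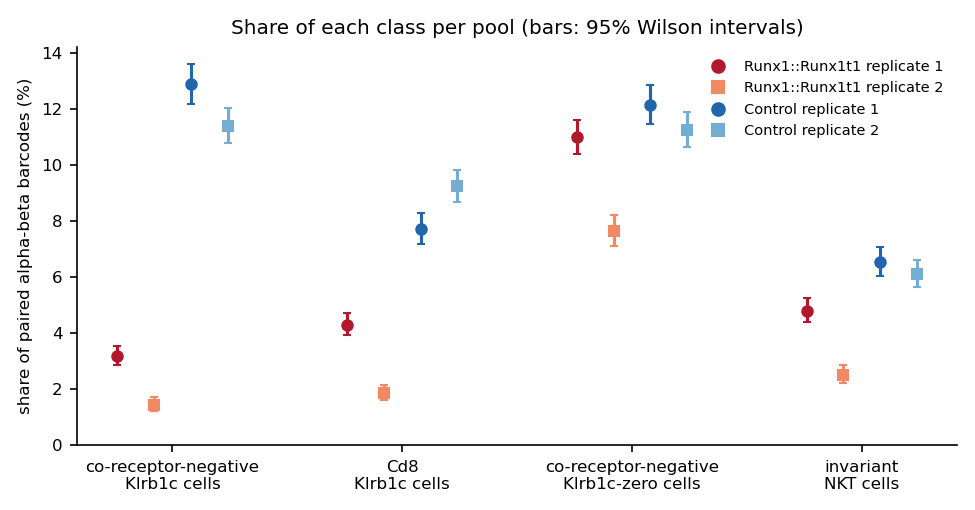
Share of paired alpha-beta barcodes (y axis, percent) taken by 4 classes of T cells (x axis) in each pool, with bars for the 95% Wilson interval of counting error. Co-receptor-negative Klrb1c cells stand at 3.18% and 1.44% in the Runx1::Runx1t1 pools and at 12.9% and 11.4% in the control pools.

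Klrb1c was itself spread unevenly over the co-receptor classes. A Klrb1c UMI was found in 40.4% of paired, non-invariant cells without a co-receptor UMI, in 9.81% of those with a Cd8 UMI alone and in 4.18% of those with a Cd4 UMI alone. Among cells without a co-receptor the share was 22.5%, 15.9%, 51.5% and 50.3%. A missing Cd8 UMI need not mean a missing protein. The Cd8 Klrb1c cells had a median of 3 Cd8a and Cd8b1 UMIs together, 29.2% of them had exactly 1, and their median depth was higher, at 8296 UMIs. The part of missed Cd8 molecules in the class was not tested.

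Natural killer receptors and their adaptors were compared first, against the Cd8 Klrb1c cells of the same pools. Over all genes, 386 of 10032 (3.85%) were higher and 325 (3.24%) lower in the co-receptor-negative cells, by the quasi-likelihood test of edgeR blocked on pool, at an adjusted p under 0.05. Without control replicate 1, 390 genes were called in place of 711. Of 24 listed natural killer receptors 22 were tested, and 14 were higher, none was lower, with a median log2 difference of 0.42 against -0.00 over all genes tested. The classes also differed in the gene that both were chosen on. Klrb1c stood at 234, 209, 273 and 292 CPM in the Cd8 Klrb1c cells, below every pool of the co-receptor-negative cells, and 42.5% of them had exactly 1 Klrb1c UMI against 29.6%. Among the co-receptor-negative cells the other markers moved with it, Tyrobp from 159, 285, 361 and 287 CPM at 1 Klrb1c UMI to 553, 710, 593 and 556 CPM at 3 or more. With both classes held to cells of exactly 1 Klrb1c UMI, an alternative chosen after seeing the data, 123 of 8636 genes were higher and 138 lower, and 10 of 19 natural killer receptors were higher and none lower (median 0.49). Ncr1 (1.66, adjusted p 0.0164), Klrb1a (1.99, adjusted p 7.36e-05), Fcer1g (1.26, adjusted p 3.14e-06) and Tyrobp (1.24, adjusted p 1.27e-05) were still higher there, while Klrd1 (adjusted p 0.318), Klrc1 (adjusted p 0.25), Klre1 (adjusted p 0.341), Ctsw (adjusted p 0.0673), Ifng (adjusted p 0.152), Tbx21 (adjusted p 0.403) and Gm36723 (adjusted p 0.0753) were not called. Ncr1 stood at 39.1, 77.9, 42.2 and 43.7 CPM against 11.1, 12.3, 16.4 and 15.2 CPM in the Cd8 Klrb1c cells, so the classes did not overlap. Its log2 difference was 1.59 ± 0.12 (SE, adjusted p 7.25e-08). Klrb1a, a relative of Klrb1c (chromosome 6, 128609227 to 128623533, minus strand), stood at 81.4, 57.9, 44.3 and 39.5 CPM against 22.9, 16.5, 16.1 and 14.4 CPM, a difference of 1.55 ± 0.09 (adjusted p 4.16e-09). The highest listed receptors in CPM were Klrk1 (NKG2D), Klrd1 (CD94), Klrc1 (NKG2A), Klre1, Cd160 and Klra7, and each of these 6 was higher by 0.18 to 0.50 on the log2 scale. After thinning each cell to 2000 UMIs, 3 of the 6 were no longer called, namely Klrc1 (0.15, adjusted p 0.343), Cd160 (0.19, adjusted p 0.171) and Klrd1 (0.10, adjusted p 0.579). Klrd1 was also not called without control replicate 1 (adjusted p 0.0918) or with DESeq2 (adjusted p 0.0733). Near-identical Klra copies may share reads, so single Klra genes are uncertain.

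The adaptors divided. Fcer1g stood at 659, 712, 801 and 717 CPM against 257, 236, 481 and 394 CPM in the Cd8 Klrb1c cells, 1.01 ± 0.08 higher on the log2 scale (adjusted p 1.81e-07). Tyrobp (chromosome 7, 30413760 to 30417585, plus strand) stood at 384, 554, 516 and 457 CPM against 157, 138, 300 and 195 CPM, 1.16 ± 0.09 higher (adjusted p 1.75e-07). In neither gene did the classes overlap. Hcst stood at 908, 900, 906 and 840 CPM, a log2 difference of 0.05 ± 0.03 (adjusted p 0.414). Of 8 listed adaptors 6 were tested, and the 2 called were Fcer1g and Tyrobp.

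Most cells held a transcript of more than the single marker. At least 1 of 7 Ly49 genes had a UMI in 72.8%, 74.4%, 85.0% and 83.9% of the cells, and at least 2 in 46.9%, 46.5%, 54.8% and 53.1%. After thinning each cell to 2000 UMIs, the first shares were 52.2%, 61.2%, 59.5% and 59.4%, and the pools of the groups then overlapped. Most Cd8 Klrb1c cells held a Ly49 transcript too, with unthinned shares of 61.8%, 62.0%, 77.5% and 74.2%, lower in every pool. Their thinned shares were 40.7%, 32.5%, 48.1% and 45.3%. The unthinned share was at most 51.0% in Klrb1c barcodes without a receptor contig and at most 34.0% in invariant NKT cells. It was at most 38.4% in the Klrb1c-zero cells and at most 4.21% in Cd4 cells without Klrb1c. The cells with an Ncr1 UMI numbered 37, 22, 154 and 166, and they held more of both adaptors. Their Tyrobp stood at 1299.7, 1554, 1205 and 1138 CPM against 269, 336, 400 and 340 CPM in the cells without one, and their Fcer1g at 1414, 1565, 1309 and 1279 CPM against 564, 527, 715 and 620 CPM. This split was made on a measured gene and was not tested.

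**Figure D2:**
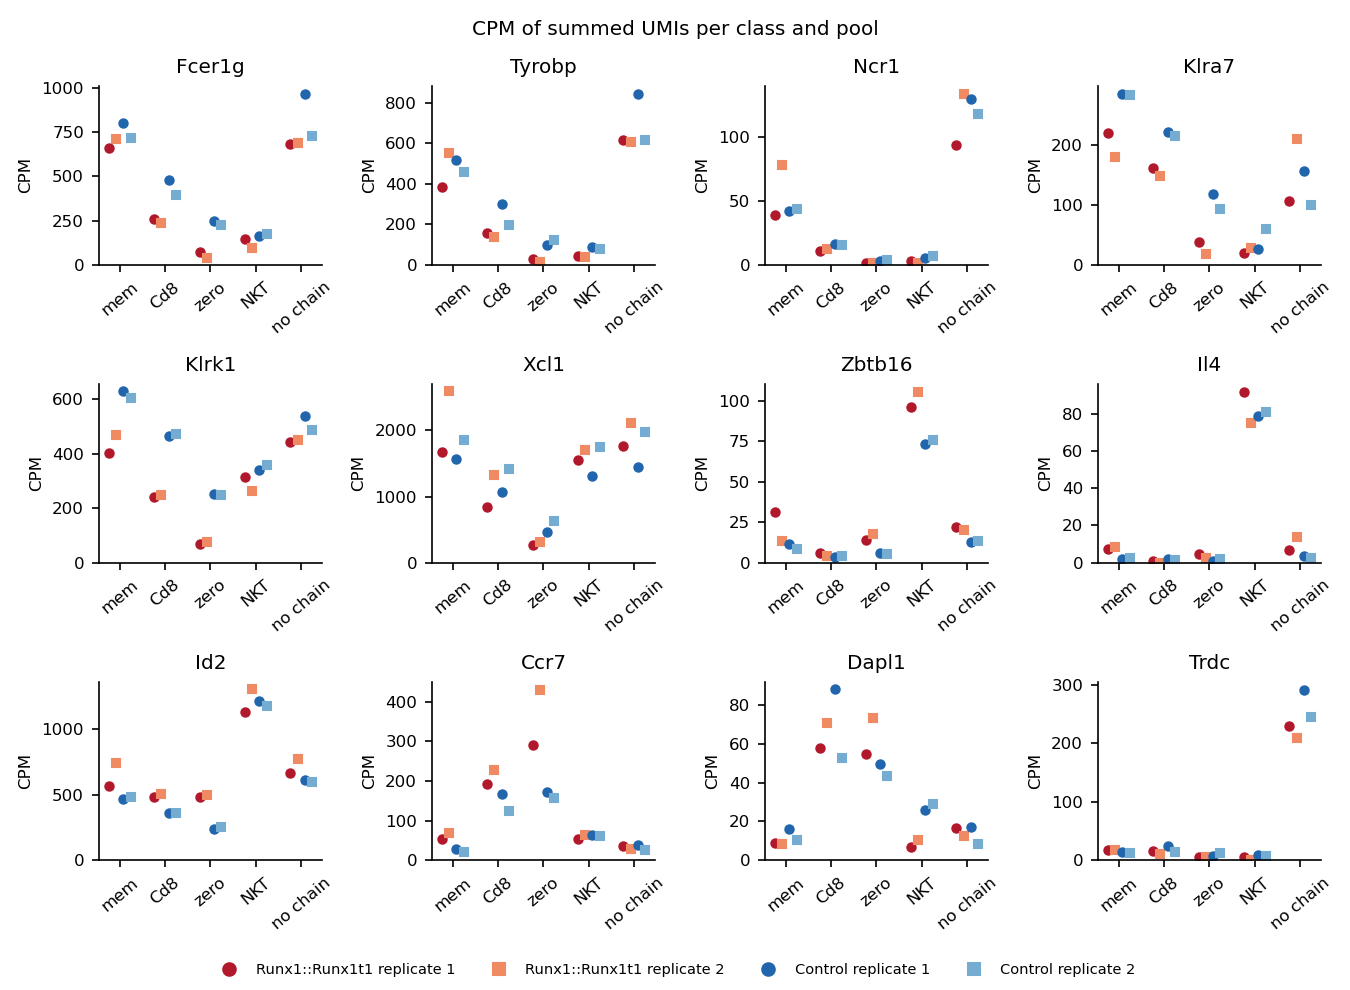
CPM of 12 genes (y axes, linear and from 0) in co-receptor-negative Klrb1c cells (mem), Cd8 Klrb1c cells (Cd8), co-receptor-negative Klrb1c-zero cells (zero), invariant NKT cells (NKT) and Klrb1c barcodes without a receptor contig (no chain), 1 point per pool. Fcer1g and Tyrobp are higher in the first class than in the Cd8, zero and NKT classes, Zbtb16 and Il4 are highest in invariant NKT cells, and Trdc is highest in the barcodes without a contig.

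The cytotoxic genes that T cells and natural killer cells store in granules went both ways. Of 15 listed, 14 were tested against the Cd8 Klrb1c cells, 5 were higher and 2 lower, with a median of -0.02. Nkg7, a granule membrane protein, stood at 1903, 1839, 1539 and 1700.1 CPM, with a difference of -0.03 ± 0.03 (adjusted p 0.63). Srgn, which packs granules, was higher by 0.20 and the cathepsin Ctsw by 0.18. The 2 lower genes were the granzymes Gzmk and Gzmm. Gzmk stood at 6.38, 2.85, 4.32 and 5.83 CPM against 66.4, 67.0, 11.5 and 19.9 CPM, a difference of -2.37 ± 0.23 (adjusted p 1.20e-06). Gzmm stood at 31.9, 15.2, 23.1 and 22.7 CPM against 84.6, 73.5, 29.2 and 32.8 CPM. Both granzymes were lower in all 4 pools, by more in the Runx1::Runx1t1 pools. The cytokine list, 10 of 11 tested, gave 3 higher and 1 lower with a median of 0.26. Xcl1, a chemokine for cross-presenting dendritic cells, stood at 1678, 2590.0, 1562 and 1856 CPM against 845, 1327, 1067 and 1422 CPM, 0.66 ± 0.07 higher (adjusted p 1.51e-06). Ifng was higher by 0.41 ± 0.06 (adjusted p 0.000247), and Ccl5, the most abundant of the list at 9753, 7160.5, 9651 and 9123 CPM, differed by -0.01 ± 0.06 (adjusted p 0.988).

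Transcription factors of innate-like lymphocytes were next. Of 16 listed 15 were tested, 7 were higher than in Cd8 Klrb1c cells and 1 was lower, with a median of 0.28. Zbtb16, which encodes PLZF, the factor that directs innate-like T cell development (chromosome 9, 48654297 to 48836222, minus strand), stood at 31.1, 13.3, 11.4 and 8.36 CPM. In Cd8 Klrb1c cells it stood at 5.92, 4.12, 3.77 and 3.83 CPM, and the difference was 1.67 ± 0.20 (adjusted p 1.54e-05). In invariant NKT cells it stood at 95.9, 105, 73.3 and 75.6 CPM, above every pool of the co-receptor-negative cells. Id2, which restrains E proteins, was higher by 0.35 ± 0.04, Ikzf2 (Helios) by 0.39 ± 0.05 and Tbx21 (T-bet) by 0.32 ± 0.05. After thinning Ikzf2 was not called (0.30, adjusted p 0.0515). Eomes, which sustains memory and natural killer programs, was the gene that was lower, by -0.29 ± 0.08 (adjusted p 0.0345). It stood at 119, 127, 82.5 and 73.1 CPM against 187, 179, 85.0 and 73.7 CPM in the Cd8 Klrb1c cells, so the difference lay in the Runx1::Runx1t1 pools. The difference itself differed between the groups by -0.57 on the log2 scale (Runx1::Runx1t1 minus control, adjusted p 0.00803 by edgeR's interaction test), and by -0.43 without likely doublets (adjusted p 0.0658). Eomes was no longer called without Runx1::Runx1t1 replicate 1 (-0.15, adjusted p 0.329), without replicate 2 (-0.25, adjusted p 0.114), with DESeq2 (adjusted p 0.249) or after thinning (adjusted p 0.143).

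Genes of naive T cells were lower. None of 12 was higher than in the Cd8 Klrb1c cells and 6 were lower, with a median of -0.27. Ccr7, the lymph node homing receptor (chromosome 11, 99144196 to 99155077, minus strand), stood at 53.9, 69.3, 28.5 and 22.4 CPM against 191, 228, 168 and 124 CPM, a difference of -2.31 ± 0.10 (adjusted p 6.91e-12). Dapl1 stood at 9.18, 8.54, 16.1 and 10.5 CPM against 57.7, 70.6, 87.8 and 52.8 CPM, a difference of -2.51 ± 0.09 (adjusted p 1.70e-12). Klf2, the most abundant of the list, was lower by -0.42 ± 0.05 (adjusted p 7.57e-06).

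The other fixed lists gave the following counts against Cd8 Klrb1c cells. Cytokine receptors gave 5 higher and none lower of 13 tested (median 0.12), with Il2rb, the beta chain shared by the IL-2 and IL-15 receptors, 0.37 ± 0.04 higher. Homing and egress receptors gave 4 higher and 4 lower of 16 (median 0.13), with Cxcr4, the marrow retention receptor, 0.22 ± 0.04 higher but not called after thinning (0.17, adjusted p 0.187). Inhibitory receptors gave 2 higher and 1 lower of 8 tested (median -0.00). Proximal receptor signalling gave 1 higher and 2 lower of 18 (median 0.00), and the adaptor Lat was lower by -0.43 ± 0.04 (adjusted p 2.99e-07). Interferon-stimulated genes gave none higher and 1 lower of 14 (median -0.05), and cell cycle genes none higher and 4 lower of 12 (median -0.51). Among cells of exactly 1 Klrb1c UMI in both classes, cytotoxic genes gave 1 higher and 2 lower of 14 (median -0.10). Cytokines there gave 1 and 1 of 6 (median -0.02), cytokine receptors 2 and none of 13 (median 0.13). Transcription factors gave 4 and 1 of 15 (median 0.19), cell cycle genes none and 1 of 11 (median -0.15), and naive genes none and 6 of 12 (median -0.27). The 5 tumor-reactive genes, which the study chose on these samples and which are therefore no independent evidence, gave 2 higher of 4 tested (median 0.35). Among cell type markers, alpha-beta T cell genes gave 2 lower of 10 (median -0.08), gamma-delta genes 1 higher of 4 (median 0.16), natural killer genes 6 higher and 1 lower of 10 (median 0.39) and invariant NKT genes 3 higher of 6 (median 0.36). Myeloid genes gave 4 higher of 6 (median 2.48), namely Lyz2, Ngp, S100a8 and S100a9, genes of neutrophils and monocytes, and those of S100a9 lay mostly in 5 cells of control replicate 1. B cell, erythroid and progenitor genes gave none of 2, 3 and 2 tested.

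The genes with the largest differences from the Cd8 Klrb1c cells, 10 in each direction, were named by size. Mmp9, a matrix metalloproteinase (chromosome 2, 164940780 to 164955850, plus strand), led those that were higher. It stood at 19.1, 59.8, 20.8 and 16.7 CPM against 2.47, 3.53, 4.75 and 5.11 CPM, a difference of 2.31 ± 0.22 (adjusted p 7.32e-07). The tubulin Tubb6, the Ly49 gene Klra5, Cd40lg (CD40 ligand), Anxa1 (annexin A1), Fcgr3 (an Fc receptor of natural killer cells) and the transcript Gm36723 followed, beside Zbtb16, Ncr1 and Klrb1a. Cd40lg stood at 28.3, 38.0, 20.8 and 21.9 CPM against 8.14, 5.88, 6.72 and 8.05 CPM. Smpdl3b, a membrane phospholipase-like protein (chromosome 4, 132732966 to 132757252, minus strand), led those that were lower, by -3.77 ± 0.50 (adjusted p 3.55e-05), at 0.399, 0.949, 0 and 0.380 CPM against 7.65, 5.88, 2.62 and 3.32 CPM. The others were Dapl1, Gm44174, Gzmk, Ccr7, Fcgrt (the neonatal Fc receptor), Igfbp4, Il6ra (IL-6 receptor), Ifngr2 (interferon gamma receptor) and Fam169b. Mmp9, Tubb6, Fcgr3 and Smpdl3b did not enter the test among cells of exactly 1 Klrb1c UMI, so that alternative does not cover them. Of the Cd8 Klrb1c cells 11.7% were marked as likely doublets, against 3.14% here. The pool shares were 5.49%, 2.41%, 15.9% and 13.4% in the Cd8 Klrb1c cells and at most 4.32% here, so that the gap lay in the control pools. Without likely doublets 580 genes were called in place of 711. A barcode with 2 or more TRB contigs can also hold 2 cells. Such barcodes made up 20.7% of the Cd8 Klrb1c cells and 6.65% of the co-receptor-negative Klrb1c cells. Their part in the differences between the classes, those of the naive genes included, was not tested.

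**Figure D3:**
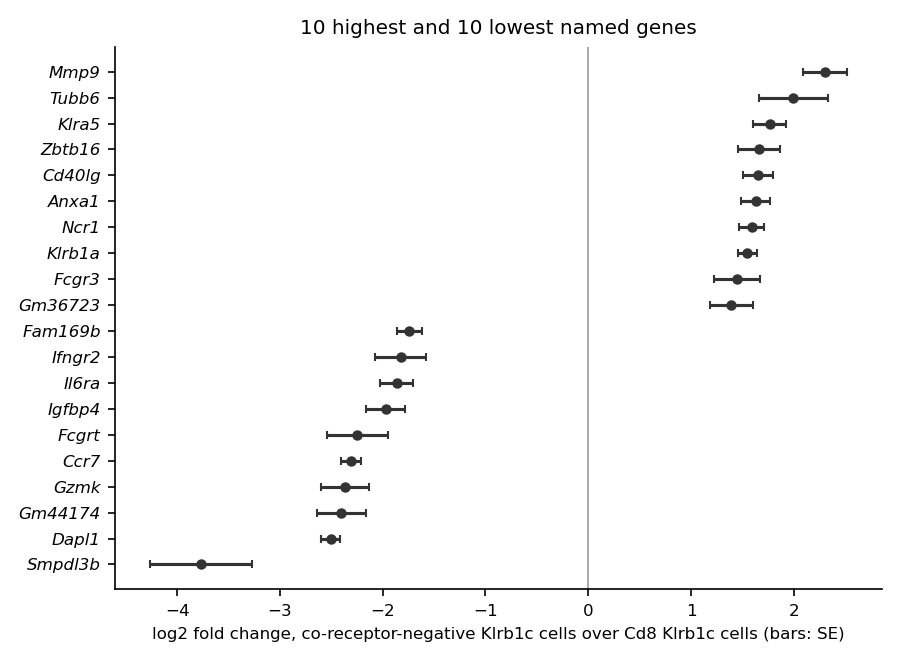
Log2 difference of co-receptor-negative Klrb1c cells from Cd8 Klrb1c cells (x axis) for the 10 genes with the largest rise and the 10 with the largest fall among those that passed the test. Bars give the SE from the edgeR fit to 4 pools. Mmp9 stands highest at 2.31 and Smpdl3b lowest at -3.77.

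The cells were also compared with invariant NKT cells, a class chosen by its receptor and not by Klrb1c or co-receptors. Of its 1872 cells 348 had 1 Klrb1c UMI and 1020 had 2 or more, and Cd4 stood at 48.4, 80.8, 41.3 and 43.0 CPM. Of 9654 genes, 1268 (13.1%) were higher and 1161 (12%) lower. Against invariant NKT cells chosen by the same Cd4, Cd8 and Klrb1c rule, 1967 of 8565 genes were called, 1009 higher and 958 lower. Natural killer receptors gave 16 higher and 1 lower of 21 tested (median 0.96), and adaptors 4 higher of 6 (median 0.63). Klrb1a was higher by 4.50 ± 0.20, Ncr1 by 3.45 ± 0.20, Klra6 by 3.30 ± 0.14, Klra7 by 3.02 ± 0.13 and Fcer1g by 2.40 ± 0.08. Il4, the signature cytokine of invariant NKT cells, stood at 7.18, 8.54, 1.98 and 2.41 CPM and was lower by -4.49 ± 0.18 (adjusted p 4.26e-12). Il17rb (the IL-25 receptor), Ccr9 (a gut homing receptor) and Ccr4 were also lower, by -4.67, -4.53 and -2.99. Zbtb16 was lower by -2.43 ± 0.16 and Cxcr6 by -2.79 ± 0.14, while Eomes was higher by 2.77 ± 0.12 and Ikzf2 by 2.08 ± 0.08. Tbx21 differed by -0.01 ± 0.06 (adjusted p 0.965). Olfm1, Cym, Capn3, Kifc3 and Tgm2 were among the 10 largest rises as well.

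The other lists were counted in the same comparison. Against invariant NKT cells, transcription factors gave 6 higher and 7 lower of 15 (median -0.07), cytotoxic genes 7 and 2 of 14 (median 0.27), cytokines 4 and 4 of 10 (median 0.36) and cytokine receptors 4 and 6 of 13 (median -0.10). Naive genes gave 5 and 6 of 12 (median -0.04), homing receptors 6 and 8 of 14 (median -0.29), inhibitory receptors 3 and 4 of 9 (median -0.59) and receptor signalling 7 and 7 of 18 (median -0.03). Interferon-stimulated genes gave 1 higher and 12 lower of 14 (median -0.75), and Ly6a, which interferon induces, was lower by -2.67 ± 0.12. Cell cycle genes gave 3 and 1 of 11 (median 0.49), and natural killer markers 8 higher of 9 (median 2.57), with invariant NKT markers at 4 lower of 6 (median -2.13). Alpha-beta T cell markers gave 2 higher and 5 lower of 10 (median -0.13), gamma-delta markers 1 and 2 of 4 (median -0.32), B cell markers 1 and 1 of 2 and erythroid markers 1 and 2 of 3 (median -1.65), and none of the progenitor markers was tested. The study's tumor-reactive genes, chosen on these samples, gave 2 and 2 of 5 (median -0.65). Myeloid markers gave 3 higher of 4 (median 1.42), namely Mpo, S100a8 and S100a9. The 10 myeloid markers summed to 8.54, 9.47, 543 and 152 CPM in the invariant NKT cells, against the 12.8, 12.3, 1405 and 45.7 CPM given for the co-receptor-negative Klrb1c cells, and their part in these results was not tested.

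Against co-receptor-negative cells with 0 Klrb1c UMIs, 811 of 10357 genes (7.83%) were higher and 735 (7.1%) lower. Without Runx1::Runx1t1 replicate 1, 984 genes were called in place of 1546, and without control replicate 2, 1027. Klrb1c divides these classes, so genes that travel with it are part of the choice. Natural killer receptors gave 21 higher and 1 lower of 22 (median 1.99), adaptors 4 and 1 of 6, cytotoxic genes 11 and 1 of 14 and cytokines 7 and 1 of 10. Other lists ran lower. Inhibitory receptors gave 1 higher and 7 lower of 9 (median -1.01), naive genes 1 and 8 of 12 (median -0.56) and interferon-stimulated genes none and 6 of 14 (median -0.35). Ctla4, an inhibitory receptor of activated and regulatory T cells, stood at 41.9, 26.6, 19.1 and 10.3 CPM against 498, 459.9, 131 and 127 CPM, a difference of -3.37 ± 0.14 (adjusted p 1.30e-07). Transcription factors gave 8 and 6 of 16 (median 0.28), homing receptors 6 and 4 of 16 (median 0.21), cytokine receptors 3 and 2 of 13 (median 0.03), receptor signalling 3 and 5 of 18 (median 0.00) and cell cycle genes 1 and none of 12 (median -0.08). Natural killer markers gave 10 higher of 10 (median 2.33), invariant NKT markers 3 and 2 of 7 (median 0.75), alpha-beta markers none and 5 of 10 (median -0.20) and gamma-delta markers 2 and 1 of 5 (median 0.73). Myeloid markers gave 3 higher of 7 (Ngp, S100a8 and S100a9, median 0.64), B cell markers 2 lower of 2, erythroid markers 1 higher of 3 and progenitor markers none of 3. The tumor-reactive genes gave 2 and 2 of 5 (median -0.08). Ncr1 was higher by 4.36 ± 0.24, Klrb1f by 3.21 ± 0.20, Cd244a (2B4) by 2.91 ± 0.16 and Gzma (granzyme A) by 2.36 ± 0.24. The 10 largest falls were Penk, Zbtb32, Il10, Foxp3, Pdlim4, Tnfrsf4 (OX40), Src, Il9r, Gpm6b and Areg. Foxp3, which defines regulatory T cells, stood at 182, 180, 52.1 and 62.4 CPM in the Klrb1c-zero cells and was lower here by -4.75 ± 0.25 (adjusted p 8.56e-07). The Klrb1c-zero cells therefore held Foxp3 transcripts in every pool, and their median depth was 5047.5 UMIs.

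The receptors were diverse. The 2675 cells formed 2576 clonotypes (cells of a pool with the same chains), numbering 301, 129, 1108 and 1038. Clonotypes of at least 2 such cells numbered 34 and held 133 cells (4.97%), with pool shares of 8.64%, 0%, 3.79% and 5.70%. Among other paired, non-invariant cells 30.1%, 43.6%, 11.6% and 13.9% were in clonotypes of 2 or more, but the larger number of those cells makes repeats easier to find, so the shares are not compared. Of 2487 distinct alpha CDR3 sequences, 48 were in 2 or more pools. Of 2566 beta sequences, 4 were in 2 or more pools, and no pair of chains was.

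Clonotypes with at least 1 of these cells also reached into other classes. In 63 of them there were 372 other cells, of which 68 had a Cd8 UMI alone, 197 a Cd4 UMI alone, 12 both and 95 neither. The 3 with most other cells held 120, 86 and 35, mostly with a Cd4 UMI (90, 63 and 30), and each had 1 co-receptor-negative Klrb1c cell. Of the 3 largest clonotypes of the cells themselves, the one of 31 cells had 10 further cells, 7 with 0 Klrb1c UMIs and 3 with a Cd8 UMI, and the one of 18 cells had 3 and 3. The one of 12 cells had 5 and 1, and in none of the 3 did a further cell have a Cd4 UMI.

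Gzma, which encodes granzyme A, was concentrated in the largest clonotypes. A Gzma UMI was found in 79 of 324, 17 of 129, 63 of 1135 and 92 of 1087 cells. In the clonotype of 31 cells, 28 had a Gzma UMI and held 740 of the 1370 UMIs of control replicate 2. In the clonotype of 18 cells, 14 held 449 of the 1277 UMIs of Runx1::Runx1t1 replicate 1, and in the clonotype of 12 cells, 9 held 216 of the 497 UMIs of control replicate 1. Runx1::Runx1t1 replicate 2 had no clonotype of 2 cells, and 5 cells there held 90.4% of its 209 UMIs. Without the cells of the largest clonotype of each pool, Gzma stood at 340, 200, 35.0 and 81.3 CPM, against 509, 198, 61.4 and 174 CPM with them.

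The use of V and J segments was compared with that of all other paired, non-invariant cells, each clonotype counted once. Of 151 segments 14 (9.27%) were used more and 11 (7.28%) less, by the quasi-likelihood test of edgeR blocked on pool, at an adjusted p under 0.05. The calls depended on the control pools, with 11 segments called without control replicate 1 and 12 without control replicate 2. They also depended on the comparison, since 2 were called against Cd8 Klrb1c cells, of which TRAJ18 was used more, by 1.12 ± 0.31 (adjusted p 0.0380). The most used called segments were TRBV12-2+TRBV13-2 (a joint name in the deposited calls) and TRBV12-2, both used more. Under its own name TRBV13-2 was used less in all 4 pools, by -0.92 ± 0.27 (adjusted p 0.00587). The joint name is therefore not read as a rise of TRBV13-2. TRAV9D-3 stood at 8.64%, 8.53%, 5.32% and 5.49% of clonotypes against 3.59%, 3.13%, 3.73% and 3.64% in the other cells, a log2 difference of 0.73 ± 0.14 (adjusted p 1.62e-05). TRAJ26, TRAJ21, TRAJ50, TRBV17, TRAJ18 and TRAV12-1 were also used more, by 0.53 to 1.04, with TRBV17 higher in 3 of 4 pools and the others in 4. TRAV12D-3 was used less, by -0.61 ± 0.18 (adjusted p 0.00587). Near-identical TRAV copies (those with D or N in the name) may be confused. With copies merged, a choice made after seeing the data, 14 segments were used more and 9 less.

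**Figure D4:**
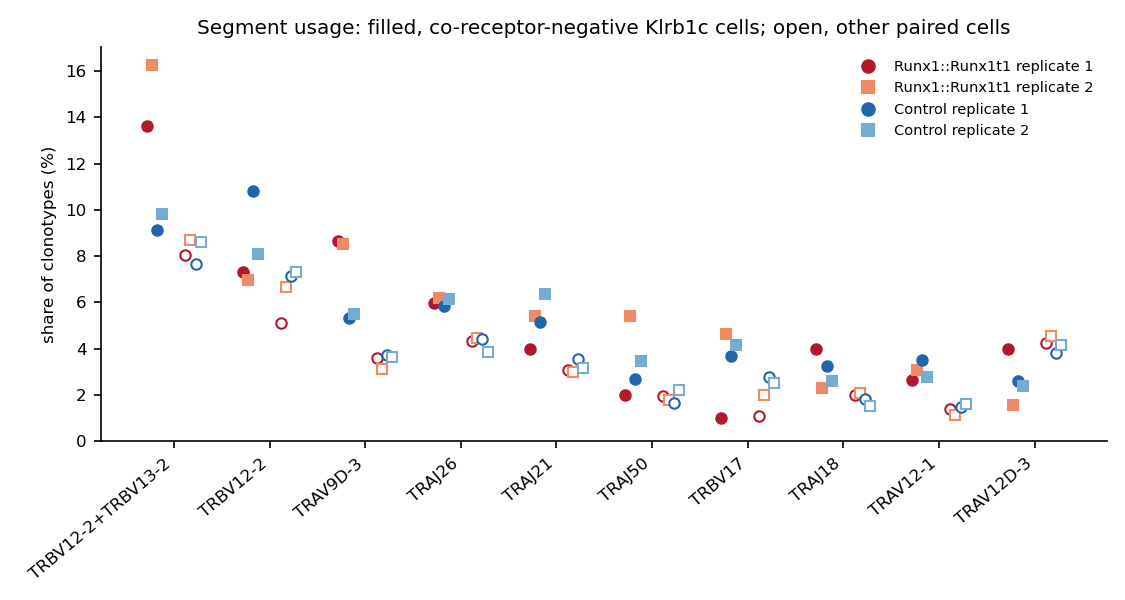
Share of clonotypes (y axis, percent) that use each of 10 segments (x axis) in co-receptor-negative Klrb1c cells (filled) and in all other paired, non-invariant cells (open), 1 point per pool. TRAV9D-3 stands between 5.32% and 8.64% in the former and between 3.13% and 3.73% in the latter, and TRBV17 of Runx1::Runx1t1 replicate 1 is the pool that goes the other way.

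TRAJ18, the J segment of the invariant receptor, was met here with other V segments, since the rule had removed its join to TRAV11. Those joins numbered 80 cells in 78 clonotypes with 34 different V segments, the most used of which was TRAV8N-2 in 11 clonotypes. The beta CDR3 was on average 43.0, 43.1, 42.7 and 42.6 nucleotides long, against 41.9, 41.7, 42.1 and 41.8 in the other cells. It was longer in all 4 pools, by 0.972 nucleotides (SD 0.314 over pools), with an exact sign-flip p of 0.125, the smallest that 4 pools can give. Against Cd8 Klrb1c cells the beta CDR3 was longer by 0.827 ± 0.355 nucleotides (SD, n = 4 pools) with the same exact p of 0.125. The alpha CDR3 differed by 0.378 ± 0.126 from the other cells and by 0.329 ± 0.185 from the Cd8 Klrb1c cells, also with an exact p of 0.125 each.

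Within the co-receptor-negative Klrb1c cells, the 2 Runx1::Runx1t1 pools were compared with the 2 control pools. By edgeR's quasi-likelihood test, 82 of 10117 genes (0.811%) were higher and 33 (0.326%) lower in the Runx1::Runx1t1 group. Each pool weighed on this count. Without Runx1::Runx1t1 replicates 1 and 2 in turn 28 and 54 genes were called, and without control replicates 1 and 2, 220 and 187. Of the 37 called genes that are named for this comparison, 27 were no longer called without Runx1::Runx1t1 replicate 1 and 23 without Runx1::Runx1t1 replicate 2, where the lone pool was assumed to vary like the others. After thinning each cell to 2000 UMIs, 15 of the 37 were no longer called, Klra7, Klrb1a, Eomes and Osgin1 among them. Natural killer receptors gave 3 higher (Klra3, Klra8 and Klrb1a) and 3 lower (Klra7, Klrc1 and Klrk1) of 22 tested, with a median of 0.11. Klrk1 stood at 405, 469, 629 and 606 CPM, a difference of -0.54 ± 0.08 (adjusted p 0.00888), and Klrc1 at 268, 276, 383 and 380 CPM, a difference of -0.53 ± 0.08 (adjusted p 0.00991). Klra7 stood at 220, 180, 285 and 283 CPM, a difference of -0.52 ± 0.11 (adjusted p 0.0357). Klrb1a was higher by 0.76 ± 0.14 (adjusted p 0.0241). In none of these 4 did the pools overlap. Without Runx1::Runx1t1 replicate 1, which leaves 1 pool in that group, none of the 4 was called. Klrk1 then differed by -0.45, Klrc1 by -0.52, Klra7 by -0.71 and Klrb1a by 0.42. Without Runx1::Runx1t1 replicate 2 Klrc1 (-0.54) and Klra7 (-0.40) were not called, and Klrb1a was not called with DESeq2 (adjusted p 0.0721). Klra3 was not called with either Runx1::Runx1t1 pool left out (1.02 without replicate 1 and 0.79 without replicate 2). Differences in the same direction were seen in the Cd8 Klrb1c cells of the same pools, where Klrk1 stood at 241, 248, 465 and 473 CPM, Klrc1 at 229, 238, 301 and 314 CPM and Klra7 at 162, 149, 223 and 215 CPM. The fall of Klrk1 was smaller here than in those cells, by 0.42 on the log2 scale (adjusted p 0.0152, interaction test, and 0.0996 without control replicate 2), and in the Klrb1c-zero cells it stood at 68.6, 75.5, 253 and 249 CPM. Fcer1g differed by -0.18 ± 0.08 (adjusted p 0.338), Tyrobp by -0.11 ± 0.13 (adjusted p 0.797) and Ncr1 by 0.27 ± 0.21 (adjusted p 0.653).

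Among the other lists, the transcription factors Eomes, Nr4a1 and Zfp683 were higher of 15 tested (median 0.41), and Eomes stood at 119, 127, 82.5 and 73.1 CPM, 0.62 ± 0.11 higher (adjusted p 0.0167). The rise of Eomes was smaller than in the Cd8 Klrb1c cells, at 187, 179, 85.0 and 73.7 CPM. With either Runx1::Runx1t1 pool left out the rise was not called, at 0.66 without replicate 1 and 0.58 without replicate 2. Ccr7 was the 1 naive gene called of 12 (median -0.23), at 53.9, 69.3, 28.5 and 22.4 CPM. Ccr2, which draws cells to inflamed tissue, and Cxcr6, a receptor of tissue-resident lymphocytes, were the homing receptors called of 15 (median -0.00). Icos and Cxcr6 were the invariant NKT markers called of 6 (median 1.13), and Il18r1 was the 1 cytokine receptor called, lower, of 13 (median 0.03). Sh2d2a was the adaptor called of 7 (median 0.13), Cd6 and Lag3 the inhibitory receptors of 8 (median 0.33), and Ly6a and Rtp4 (higher) and Usp18 (lower) the interferon-stimulated genes of 14 (median 0.10). Natural killer markers gave 2 higher and 1 lower of 10 (median 0.08). No gene was called of the 14 cytotoxic (median 0.12), 10 cytokine (0.01), 18 receptor signalling (0.15), 12 cell cycle (0.65), 10 alpha-beta (0.11), 4 gamma-delta (0.58), 2 B cell (0.59), 3 erythroid (-2.20) and 3 progenitor genes (-0.09) tested, against a median of -0.01 over all genes. None of 7 myeloid genes was called either, with a median of -7.15. The 2 of these at 0 in both Runx1::Runx1t1 pools are Csf1r and Ngp, and with both at their bound (3 UMIs over the group) the median was -6.41. The myeloid sums of 12.8, 12.3, 1405 and 45.7 CPM thus differed between the groups, most of all in control replicate 1, and their part in the group comparison was not tested. The study's tumor-reactive genes Lag3 and Osgin1, chosen on these samples, were higher, 2 of 4 tested (median 0.91). Nr4a1, Icos, Il18r1, Ly6a, Rtp4 and Lag3 were not called with either Runx1::Runx1t1 pool left out, which leaves 1 pool in that group. Without replicates 1 and 2 in turn, Nr4a1 differed by 0.53 and 0.54, Icos by 1.57 and 1.05 and Il18r1 by -1.14 and -0.67. In the same order, Ly6a differed by 1.02 and 0.90, Rtp4 by 1.07 and 0.71 and Lag3 by 1.40 and 1.84. Sh2d2a (0.49) and Usp18 (-0.87) were not called without Runx1::Runx1t1 replicate 1, and Zfp683 (0.78) and Cxcr6 (0.64) without Runx1::Runx1t1 replicate 2. Gzma was not called, at 509, 198, 61.4 and 174 CPM (difference 1.60 ± 0.42, adjusted p 0.103).

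Several of the largest group differences were set beside Cd4 cells without Klrb1c of the same libraries, and that of Cpa3 was also present there. Cpa3, a mast cell and progenitor protease, had a UMI in 10.5%, 10.1%, 0.176% and 0.184% of the cells and in 11.1%, 13.1%, 0.12% and 0% of the Cd4 cells. Its UMIs lay in 34, 13, 2 and 2 cells, and 5 cells of Runx1::Runx1t1 replicate 1 held 103 of the 132 UMIs there (78.0%). The part of free RNA in this result was not tested. Among the falls, F13a1, Ifitm3, Aldh2 and Ms4a6c had lower shares in the cells than in the Cd4 cells of every pool. Emp1, Lag3 and Gm47015 rose but had lower shares in the cells than in the Cd4 cells of every pool too. Klra8 (Ly49H, chromosome 6, 130115226 to 130129898, minus strand) stood at 14.4, 16.1, 1.85 and 0.633 CPM, 3.53 ± 0.45 higher (adjusted p 0.00276). Without Runx1::Runx1t1 replicate 1 it was 3.62 higher but not called. Its UMIs lay in 11, 6, 2 and 2 cells, 3 of the first from the clonotype of 18 cells.

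Ccr2, Ckb, Osgin1 and Gm36723 rose and had higher shares than the Cd4 cells in both Runx1::Runx1t1 pools. Ccr2 stood at 91.8, 90.2, 38.4 and 30.7 CPM, 1.37 ± 0.12 higher (adjusted p 0.000553), with a UMI in 38.9%, 34.9%, 14.9% and 15.1% of the cells against 16.6%, 15.7%, 9.63% and 14.0% of the Cd4 cells. Ckb, a creatine kinase, was higher by 1.51 ± 0.16 (adjusted p 0.000941), with a UMI in 14.5%, 13.2%, 6.43% and 6.26% of the cells against 7.74%, 7.39%, 5.54% and 5.91%. Osgin1, an oxidative stress response gene, was higher by 1.51 ± 0.15 (adjusted p 0.000703), with shares of 20.1%, 22.5%, 8.19% and 7.82% against 11.8%, 12.6%, 8.90% and 6.33%. Osgin1 in control replicate 1 lay below the Cd4 share, and after thinning Osgin1 was not called (1.19, adjusted p 0.0708). Gm36723 was higher by 2.03 ± 0.28 (adjusted p 0.00471). Cym, annotated as the protease chymosin, stood at 15.6, 22.8, 50.1 and 49.1 CPM, lower by -1.50 ± 0.17 (adjusted p 0.00112), with a UMI in 9.88%, 12.4%, 24.3% and 23.3% of the cells and in at most 0.963% of the Cd4 cells. After thinning each cell to 2000 UMIs the Ccr2 shares were 11.5%, 14.0%, 5.59% and 5.36%, against 8.90%, 7.21%, 5.80% and 7.80% in the Cd4 cells, so that the control pools lay below those cells. The thinned shares of Cym were 3.42%, 3.88%, 8.78% and 9.05%, and without Runx1::Runx1t1 replicate 1 Cym was not called (-1.17, adjusted p 0.0517).

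The same genes were then followed in the other classes of the same pools. Ccr2 stood at 74.5, 62.3, 34.1 and 29.6 CPM in the Cd8 Klrb1c cells and at 60.6, 63.5, 24.7 and 39.7 CPM in the Klrb1c-zero cells, and Cym at 19.2, 11.8, 45.7 and 38.5 CPM and at 5.41, 1.95, 16.3 and 18.5 CPM. Osgin1 stood at 9.13, 28.8, 5.41 and 8.82 CPM in the Cd8 Klrb1c cells and at 24.7, 22.6, 8.77 and 11.1 CPM in the Klrb1c-zero cells. These 3 genes thus differed between the groups in the same direction, without overlap, in both other classes. Ckb stood at 7.40, 6.47, 12.4 and 7.41 CPM in the Cd8 Klrb1c cells, where neither Runx1::Runx1t1 pool was above a control pool, and at 25.4, 38.7, 17.2 and 16.2 CPM in the Klrb1c-zero cells. Its group difference was larger here than in the Cd8 Klrb1c cells by 1.99 on the log2 scale (adjusted p 0.00103, interaction test), and by 1.84 after thinning (adjusted p 0.279).

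**Figure D5:**
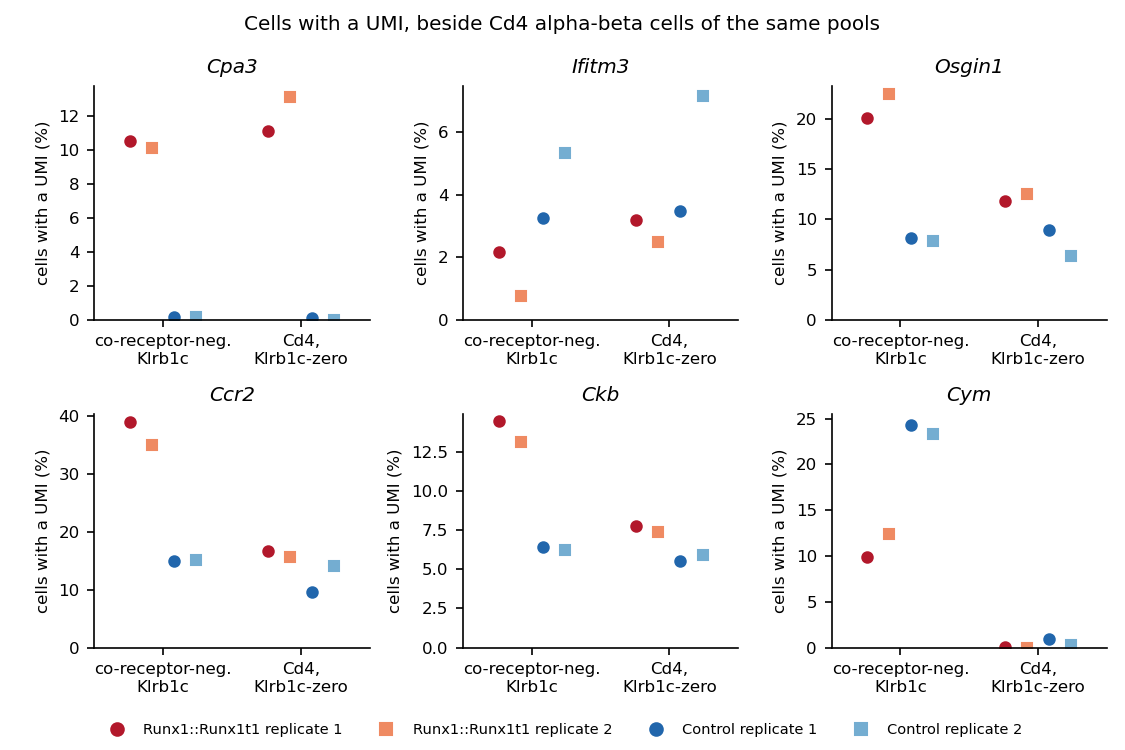
Share of cells with a UMI (y axes, percent) of 6 genes named in the comparison of groups, in co-receptor-negative Klrb1c cells and in Cd4 cells without Klrb1c of the same pools, 1 point per pool. Cpa3 is as frequent in the Cd4 cells of the Runx1::Runx1t1 pools, while Cym reaches 24.3% in the former and at most 0.963% in the latter.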

How the data were processed

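Gene expression and T cell receptor libraries of 4 pools were analysed. The deposited count matrices hold UMI counts per gene and barcode, and the deposited contig tables hold UMI counts of each receptor contig. Per the labels and the study's methods, the authors made both with Cell Ranger 6.1.2 on GRCm38, and the annotation release is not given in the sources used here. Gene positions are from a GENCODE annotation of GRCm38.

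Every TRA and TRB contig with a barcode in the deposited tables was used. The study's methods describe keeping high-confidence, full-length, productive chains, and no such filter was added here. UMIs were summed per class and pool and tested with edgeR 4.0.16 (R 4.3.3) using TMM, filterByExpr and the quasi-likelihood test with Benjamini-Hochberg adjustment. Classes of the same pool come from the same mice, so pool was a block. The comparison of groups had no block. P-values of edgeR rest on a spread over 4 pools of 2 mice that is modelled with information shared across genes. They do not measure each gene's own spread between pools. The SE of a log2 difference was taken from the same fit. Wilson intervals and floors cover counting error only. DESeq2 1.42.0 was an alternative. Doublets were scored and kept, except in an alternative. Where the automatic threshold marked under 0.5% of barcodes, the top 5% of scores were taken. Scripts were tested on simulated data.

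Named genes were the 10 largest rises and falls of each comparison (adjusted p under 0.05, the same direction in every pool, at least 10 UMIs per pool in the higher class), 2 to 6 of each list by CPM, and the markers. Other list members are named where a count was 5 or fewer, and were chosen after their values were seen, as were Gzma by clonotype and the shares beside Cd4 cells. The members and lists were chosen with earlier results of these data known. Some genes of the lists are counted but not reported here by name.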

Additional observations from a re-analysis of the deposited data

Results flagged for a closer look

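The difference between co-receptor-negative Klrb1c cells and Cd8 Klrb1c cells itself differed between the Runx1::Runx1t1 and control pools for 14 of the 76 tested genes named in either comparison, by edgeR's interaction test of class with group. Over all 10032 genes, 42 passed that test. The values are log2, Runx1::Runx1t1 minus control, with 2 pools per group. Their p-values rest on a spread modelled with information shared across genes, so a small one does not show agreement between mice. Gzma differed by -1.44 (adjusted p 2.13e-11) and Ccl5 by -0.51 (adjusted p 2.13e-11), and both were lower than in the Cd8 cells in both Runx1::Runx1t1 pools and higher in both control pools. For Gzma, the largest clonotype of each pool was also left out of these cells, while the Cd8 Klrb1c cells kept all of theirs. Gzma then stood at 340, 200, 35.0 and 81.3 CPM, below the 803, 358, 39.3 and 100.04 CPM of the Cd8 Klrb1c cells in every pool. The removal was made in 1 class only, so this is not an even comparison of the classes. With 1 cell per clonotype the Gzma difference between the groups was -0.28 (adjusted p 0.36). Gzmk differed by -2.01 (adjusted p 0.00665), Gzmm by -1.15 (adjusted p 0.00508), Eomes by -0.57 (adjusted p 0.00803) and Klf2 by -0.26 (adjusted p 0.0472). Ckb differed by 1.99 (adjusted p 0.00103), Ly6a by 1.46 (adjusted p 3.02e-07), Rtp4 by 0.89 (adjusted p 0.0349) and Ccr7 by 0.73 (adjusted p 0.00925). Fcer1g differed by 0.64 (adjusted p 2.38e-06), Xcl1 by 0.52 (adjusted p 3.81e-07), Klrk1 by 0.42 (adjusted p 0.0152) and Il2rb by 0.23 (adjusted p 0.0264). Likely doublets made up 5.49% and 2.41% of the Cd8 Klrb1c cells in the Runx1::Runx1t1 pools and 15.9% and 13.4% in the control pools. Without them Ccr7 (0.28, adjusted p 0.675), Eomes (-0.43, adjusted p 0.0658), Il2rb (0.26, adjusted p 0.0622) and Rtp4 (0.87, adjusted p 0.0639) no longer passed. With 1 cell per clonotype, Gzmk (adjusted p 0.341), Il2rb (adjusted p 0.069) and Rtp4 (adjusted p 0.0633) did not pass either. Eomes, Il2rb, Rtp4, Klf2, Klrk1 and Ccr7 also lost their call with at least 1 pool left out, Ccr7 without control replicate 1 (adjusted p 0.0811) and Klrk1 without control replicate 2 (adjusted p 0.0996). After thinning, Gzmm, Eomes, Ckb and Rtp4 did not pass (adjusted p 0.113 to 0.941). Fcer1g, Xcl1, Ccl5 and Ly6a passed in each of these settings, of which those with a pool left out leave 1 pool in a group.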

How the results depend on the processing

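For the share of members per pool (the co-receptor-negative Klrb1c cells), the difference of -9.81 percentage points ranged from -7.07 (Klrb1c at 2 or more UMIs) to -10.2 (exactly 1 contig per chain), and from -8.94 to -10.7 when each pool was left out. The number of genes called against Cd8 Klrb1c cells was 711, and 300 with DESeq2, 241 after thinning, 261 among cells with exactly 1 Klrb1c UMI and 390 to 625 with each pool left out. Against Klrb1c-zero cells it was 1546, and 943 with DESeq2 and 984 to 1239 with each pool left out. Against invariant NKT cells it was 2429, and 1202 with DESeq2, 1136 after thinning and 1660 to 2428 with each pool left out. Between groups it was 115, and 181 without doublets and 28 to 220 with each pool left out. The number of segments called was 25, and 3 with cells counted, 3 with DESeq2, 2 against Cd8 Klrb1c cells and 11 to 25 with each pool left out, of which 10 to 23 were among the 25. The interaction of class with group called 42 genes, and 24 after thinning, 70 at exactly 1 Klrb1c UMI and 17 to 102 with each pool left out, settings chosen after seeing the data. Thinning and DESeq2 test other numbers of genes, and the causes were otherwise not tested.

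Replicate numbers are shared between the groups without a stated pairing, and the deviations of same-numbered pools correlated at 0.0227 across genes. With a replicate block, 303 genes were called between groups and the share difference was -9.81. With no replicate block, the class comparisons called 57 (Cd8), 928 (Klrb1c-zero) and 1644 (invariant NKT) genes and 21 segments.

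Of 2035 values of named genes and segments under an alternative, 1810 kept direction and side of the threshold, 198 lost the call, 9 gained it and 18 reversed. Cd3e, members against Cd8 Klrb1c cells, reversed to -0.00104 after thinning and -0.0224 at exactly 1 Klrb1c UMI, and ranged from -0.00721 (without Runx1::Runx1t1 replicate 2) to 0.0277 with each pool left out. Cd3e, members against Klrb1c-zero cells, ranged from -0.00523 (without control replicate 2) to 0.0536. Gzma, members against Cd8 Klrb1c cells, ranged from -0.42 to 0.30 and reversed without either Runx1::Runx1t1 pool, to 0.30 and 0.06. Ccl5, members against Cd8 Klrb1c cells, was 0.0816 with 1 cell per clonotype and ranged from -0.0951 to 0.0830 with each pool left out, and Nkg7, members against Cd8 Klrb1c cells, from -0.0693 to 0.00332. Tbx21, members against invariant NKT cells, ranged from -0.0793 to 0.0139. Tyrobp, members of Runx1::Runx1t1 against members of control, ranged from -0.37 to 0.14, and Ncr1, members of Runx1::Runx1t1 against members of control, from -0.16 to 0.81. Ccr7 against invariant NKT cells, -0.65 and in the same direction in 2 of 4 pools, reversed to 0.44 without doublets and 1.86 against invariant NKT cells chosen by the same co-receptor and Klrb1c rule. TRBV12-2 usage was -0.13 against Cd8 Klrb1c cells. The cells of Runx1::Runx1t1 replicate 2 numbered 129, which limits what its sums can show for genes at few UMIs.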
